A study of Mus musculus with 12 samples.

Results

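The interferon-stimulated genes described here are Isg15, Ifit1, Ifit3, Irf1, Irf7, Stat2, Oasl2, Bst2 and Ifi27. They were taken by gene symbol from a table of read counts for 53599 mouse genes. All 9 have a row there, and all 9 were among the 16210 genes that passed the filter on low counts. RNA was sequenced from 12 libraries of cells sorted from livers of mice whose genotype label is WT. Every mouse had received AAV8-TBG-Cre, an adeno-associated virus in which the hepatocyte promoter TBG drives Cre recombinase, so that EGFP marks hepatocytes and the cells that descend from them. A diet with 0.1% DDC, a toxin used to injure the liver and make hepatocytes take on biliary features, began 1 week after the virus and lasted 8 weeks. The early group is EGFP+ Cd24- Epcam-, the intermediate group EGFP+ Cd24+ Epcam-, the full group EGFP+ Cd24+ Epcam+, and the biliary epithelial cells (BEC) are EGFP- Epcam+, with 3 replicates in each group. All groups share the virus and the DDC diet, so the libraries include no cells of an uninjured liver. The age, sex and strain of the mice are not given in the sources used here, nor is it stated that replicates are separate mice, so the p-values measure the spread between these samples, which may be technical.

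Interferons are secreted proteins that bind receptor pairs at the cell surface. Type I and type III interferons activate the kinases JAK1 and TYK2 and, through them, a complex with STAT2 and IRF9 that binds the interferon-stimulated response element in promoters, while interferon gamma acts mainly at the gamma-activated site. The genes switched on encode regulators that amplify the response and effectors that limit viruses. Hepatocytes and biliary cells both carry interferon receptors, and the response is best known in the liver from viral hepatitis.

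The promoters are shown first, since the 2 elements just named are what interferon signalling reads in such genes. RefSeq promoter windows (build GRCm38.p6, from 250 bases before to 50 bases after each transcription start) were found for 8 of the 9 genes, with Ifi27 the exception. Both strands were searched for the core of the interferon-stimulated response element, GAAANNGAAA, and for the core of the gamma-activated site, TTCNNNGAA, which reads the same on both strands. The first was found in 5 of the 8 genes, namely Isg15 with 3 matches, Ifit1, Ifit3 and Bst2 with 2 each, and Stat2 with 1. Of all 27025 genes in the table, 3.99% held it in at least 1 promoter (3.44% of all 32851 promoters). Other interferon pathway genes described below, above the filter and with a promoter, held it as well. These were 14 of 33 other type I effectors, 9 of 11 interferon gamma targets, 2 of 8 nucleic acid sensors and 0 of 5 receptor chains. The core of the gamma-activated site was found in Irf1, in the first of its 2 promoters, and in Bst2, against 9.55% of all genes and 8.30% of all promoters. The Bst2 match overlaps its first match to the other motif. The windows of Irf7 and Oasl2 held neither string. The stretches around the matches are given 5′ to 3′ along the gene's strand, with the bases that match in capitals. Each line marks 1 motif, the response element except where the gamma-activated site is named.
Isg15, chr4:156200850-156200921, minus strand: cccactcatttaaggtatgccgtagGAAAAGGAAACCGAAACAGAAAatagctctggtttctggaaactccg
Ifit1, chr19:34640760-34640838, plus strand: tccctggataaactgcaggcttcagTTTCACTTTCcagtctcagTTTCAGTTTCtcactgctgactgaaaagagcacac
Ifit3, chr19:34583348-34583441, plus strand: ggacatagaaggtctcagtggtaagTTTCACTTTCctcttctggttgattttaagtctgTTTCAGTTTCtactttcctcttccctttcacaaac
Stat2, chr10:128270251-128270310, plus strand: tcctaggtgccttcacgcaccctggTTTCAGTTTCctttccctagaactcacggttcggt
Bst2, chr8:71537562-71537627, minus strand: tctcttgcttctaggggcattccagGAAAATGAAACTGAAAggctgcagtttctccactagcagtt
Bst2, gamma-activated site, chr8:71537575-71537633, minus strand: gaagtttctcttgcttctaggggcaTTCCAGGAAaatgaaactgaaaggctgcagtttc
Irf1, gamma-activated site, chr11:53769899-53769957, plus strand: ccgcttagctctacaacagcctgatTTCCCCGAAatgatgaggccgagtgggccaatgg
The matches lie 57 to 78 bases before the start in Isg15, 76 to 104 in Ifit1, 113 to 156 in Ifit3, 213 to 222 in Stat2, 115 to 130 in Bst2, with its gamma-activated site at 128 to 136, and 82 to 90 in Irf1. In Isg15 and Bst2 the response element matches overlap one another on the gene's own strand, whereas in Ifit1, Ifit3 and Stat2 they read on the opposite strand. A match is a string of letters, and no binding was measured.

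Libraries held 15112893 to 19731887 counts in genes. Levels are given in CPM, which are counts per 1000000 of a library size scaled by edgeR's trimmed mean of M-values (TMM), and 3 counts correspond to 0.128 to 0.273 CPM depending on the library. Early and BEC libraries carried the markers of their labels: 10 hepatocyte markers summed to 98821 to 103539 CPM in early libraries and to 2052 to 2719 CPM in BEC libraries, and the biliary markers to 966 to 1927 CPM in early and 15139 to 18955 CPM in BEC libraries. In intermediate and full libraries the hepatocyte sums were 15069 to 19664 and 3345 to 4390 CPM. The biliary sums were 9670 to 12646 CPM in intermediate and 12716 to 16070 CPM in full, where they overlapped BEC. Mitochondrial genes took 7.63% ± 3.31 of counts in early libraries (SD, n = 3), with replicate 2 highest at 11.4%, and group means of 2.33% to 4.27% elsewhere. That replicate was also the highest early library for Stat2 and the lowest for Bst2 and Isg15, and without it the first-step calls of Irf7, Bst2 and Oasl2 held while that of Stat2 did not (edgeR adjusted p = 0.0651). The scaling matters most against the early group. When libraries were scaled by total counts alone, the median change of all genes moved from 0.06 to 0.72 (log2) between early and intermediate and from 0.01 to 0.21 between intermediate and full, and genes called higher went from 52.8% to 85.6% and from 51.2% to 72.6% of those called. Directions below are relative to the TMM scale. In bulk RNA of sorted cells, fewer cells of a type and less RNA per cell cannot be told apart.

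The 9 genes did not move together along the sorted populations. Oasl2 rose at each step from early to intermediate to full to BEC, while Stat2 and Bst2 fell at each step. Irf7 fell between early and intermediate, Irf1 and Ifit1 rose between intermediate and full, and Ifit1 and Ifit3 were lower in BEC than in full. Isg15 and Ifi27 did not pass the test among the 4 groups (edgeR's quasi-likelihood test with Benjamini-Hochberg adjustment over all tested genes, adjusted p = 0.117 and 0.123). The other 7 did, beside 75.6% of all genes tested.

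**Figure D1:**
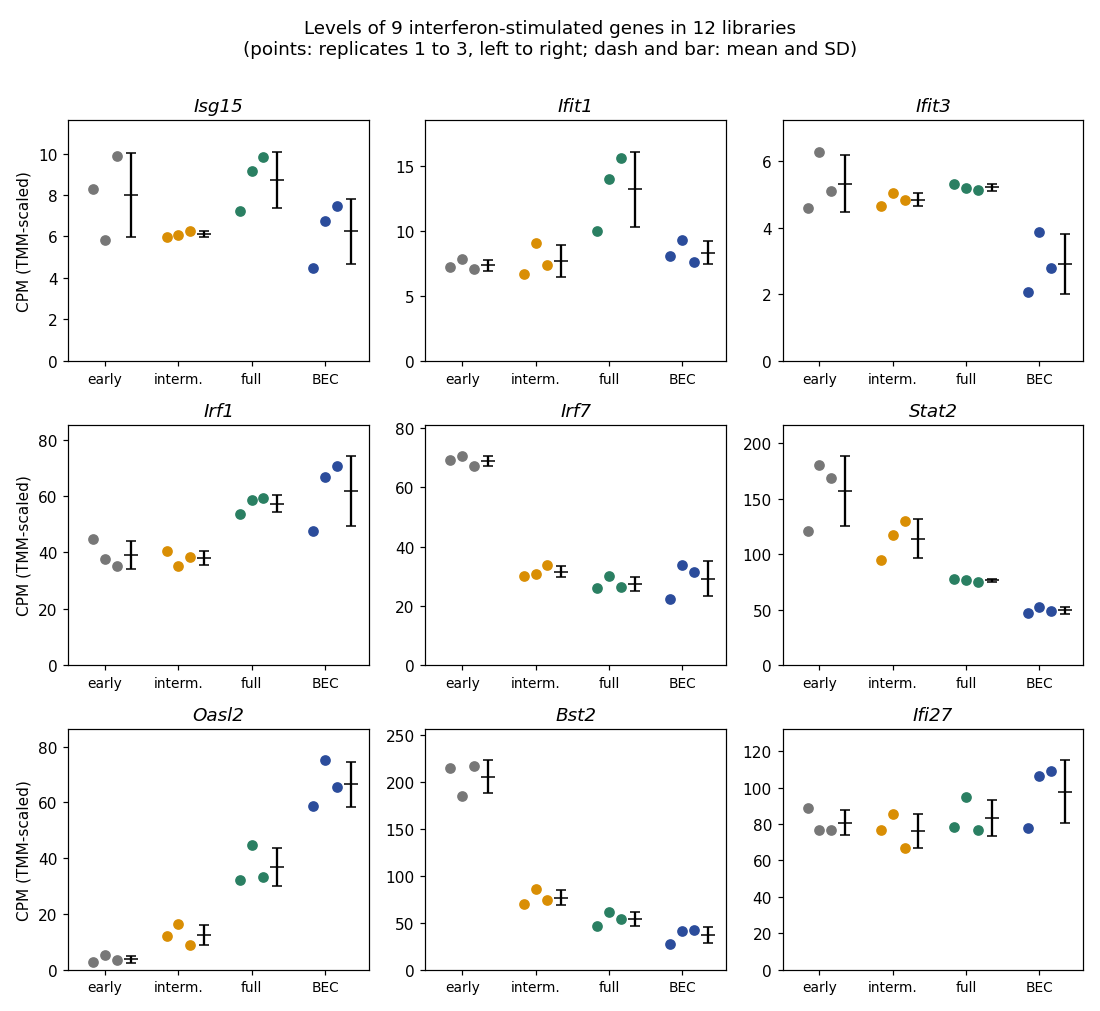
Level of each of the 9 genes in each of the 12 libraries, in CPM on a linear axis from 0, with groups on the horizontal axis, a point for each replicate, and a dash and bar for the group mean and SD. The 3 early points of Irf7, between 67.2 and 70.4 CPM, lie above all others, the points of Oasl2 climb from early to BEC, and those of Bst2 and Stat2 descend.

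Among the transcription factors, Stat2 encodes the subunit that gives the complex with IRF9 its activating domain. Its level was 121, 180 and 169 CPM in early replicates 1 to 3, 94.8, 117 and 130 CPM in intermediate, 77.4, 76.8 and 74.6 CPM in full, and 46.7, 52.7 and 49.0 CPM in BEC. Early replicate 1 lay below intermediate replicate 3, and no other neighbouring groups overlapped. The log2 fold changes of the successive steps were -0.46 (SE 0.14, edgeR adjusted p = 0.0131), -0.58 (SE 0.14, adjusted p = 0.00477) and -0.62 (SE 0.14, adjusted p = 0.00553), and BEC against early was -1.66. The first of these steps is the least certain, since it was 0.20 (adjusted p = 0.216) with total-count scaling, where full against early was -0.17 (adjusted p = 0.271). It also missed the threshold in edgeR's test without early replicate 2 (-0.35, adjusted p = 0.0651), early replicate 3 (-0.40, 0.0528) or intermediate replicate 1 (-0.34, 0.0666). In the GENCODE annotation Stat2 shares 0 exonic bases with any other gene. In RefSeq its span overlaps that of Apof, an apolipoprotein gene of hepatocytes, whose level was 755 ± 65.8, 122 ± 5.59, 18.6 ± 5.00 and 9.58 ± 5.04 CPM in early, intermediate, full and BEC (SD, n = 3 each). The annotation used for the counts is not given in the sources used here, and the part of shared reads in the Stat2 values was not tested.

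Irf7 encodes the factor that amplifies the production of type I interferon and is itself induced by it. Its level was 69.1, 70.4 and 67.2 CPM in early replicates, 30.1, 30.6 and 33.6 CPM in intermediate, 26.0, 30.0 and 26.2 CPM in full, and 22.4, 33.7 and 31.4 CPM in BEC. Every early replicate was above every other library, the full replicates lay just below the intermediate ones, and BEC overlapped both. The fall from early to intermediate had a log2 fold change of -1.13 (SE 0.13, edgeR adjusted p = 7.40e-06), and it passed under all 19 alternatives, the smallest change being -0.47 with total-count scaling. The next steps were -0.20 (adjusted p = 0.251; 0.0034 with total-count scaling) and 0.09 (adjusted p = 0.718) by the same test. The second step minus the first was 0.93 (SE 0.23, edgeR adjusted p = 0.0142), a positive value because the second fall was smaller. This difference missed the threshold with total-count scaling (0.47, 0.133), without intermediate replicate 1 (0.86, 0.0600) and without intermediate replicate 2 (0.89, 0.0706). In the GENCODE annotation 45 exonic bases of Irf7, 1.19%, are shared with Phrf1 on the opposite strand.

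Irf1, a factor induced through the gamma-activated site and active on both interferon and antigen presentation genes, differed at another step. It was measured at 44.8, 37.6 and 35.3 CPM in early replicates, 40.5, 35.3 and 38.4 CPM in intermediate, 53.7, 58.5 and 59.5 CPM in full, and 47.6, 66.9 and 70.8 CPM in BEC. The full replicates were all above the early and intermediate ones, and BEC replicate 1 was the lowest of the 6 Epcam+ libraries. Between intermediate and full Irf1 rose by a log2 fold change of 0.59 (SE 0.14, edgeR adjusted p = 0.00372). Early and intermediate differed by -0.04 (adjusted p = 0.822), with an opposite and called value of 0.62 (adjusted p = 0.00134) with total-count scaling, and BEC and full by 0.11 (adjusted p = 0.660), in edgeR's test. Irf1 shares 135 exonic bases, 3.40%, with Gm17334 on the opposite strand.

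Oasl2, a relative of the oligoadenylate synthetases with a ubiquitin-like tail, covered the widest range of the 9 genes by fold. Its level was 2.61, 5.09 and 3.24 CPM in early replicates, 12.2, 16.2 and 8.77 CPM in intermediate, 32.2, 44.6 and 33.3 CPM in full, and 58.7, 75.0 and 65.4 CPM in BEC. No groups overlapped. The log2 fold changes of the 3 steps were 1.78 (SE 0.27, edgeR adjusted p = 7.36e-05), 1.57 (SE 0.22, adjusted p = 7.46e-05) and 0.86 (SE 0.21, adjusted p = 0.00848), and each passed under all 19 alternatives, the first being 2.44 with total-count scaling. BEC stood 4.20 above early on the log2 scale (SE 0.26, edgeR adjusted p = 4.50e-09).

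Bst2, which encodes tetherin, a membrane protein that holds budding virus at the cell surface, ran the other way. It was measured at 215, 186 and 217 CPM in early replicates, 70.4, 85.8 and 74.4 CPM in intermediate, 46.0, 61.5 and 53.8 CPM in full, and 27.2, 41.4 and 42.5 CPM in BEC. No neighbouring groups overlapped. The first step had a log2 fold change of -1.42 (SE 0.16, edgeR adjusted p = 4.67e-06) and passed under all 19 alternatives, the smallest change being -0.76 with total-count scaling. The later steps were smaller, at -0.52 (SE 0.16, adjusted p = 0.0173) and -0.54 (SE 0.16, adjusted p = 0.0261), and were less certain in edgeR's test. The second missed the threshold with total-count scaling (-0.32, 0.131), without intermediate replicate 2 (-0.44, 0.0801) and without full replicate 1 (-0.42, 0.0764). The third missed it without full replicate 2 (-0.43, 0.118), full replicate 3 (-0.54, 0.0665) or BEC replicate 1 (-0.36, 0.0821). The second step minus the first was 0.90 (SE 0.27, edgeR adjusted p = 0.0392), a positive value because the second fall was smaller. This difference missed the threshold with total-count scaling (0.44, 0.238) and without any of 7 libraries: early replicates 1 (0.87, 0.0560) and 3 (0.86, 0.0719), intermediate replicates 1 (0.78, 0.146), 2 (1.07, 0.0598) and 3 (0.85, 0.130), and full replicates 2 (0.79, 0.0863) and 3 (0.90, 0.0664).

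Ifit1 encodes a protein that recognises foreign RNA ends, and Ifit3 encodes a relative of it. Ifit1 was measured at 7.20, 7.82 and 7.04 CPM in early replicates, 6.66, 9.04 and 7.36 CPM in intermediate, 9.96, 14.0 and 15.6 CPM in full, and 8.04, 9.32 and 7.59 CPM in BEC. The 3 full libraries were the highest, and the other groups overlapped. Ifit1 rose from intermediate to full by 0.77 on the log2 scale (SE 0.18, edgeR adjusted p = 0.00408), and BEC was below full by a log2 fold change of -0.66 (SE 0.18, adjusted p = 0.0173). The latter missed the threshold in edgeR's test without full replicate 2 (-0.62, 0.0657), full replicate 3 (-0.53, 0.0989), BEC replicate 1 (-0.64, 0.0537) or BEC replicate 3 (-0.60, 0.0714). Intermediate and early differed by 0.07 (adjusted p = 0.796), or by 0.73 (adjusted p = 0.00441) with total-count scaling.

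Ifit3 was measured at 4.59, 6.27 and 5.10 CPM in early replicates, 4.65, 5.04 and 4.81 CPM in intermediate, 5.32, 5.17 and 5.12 CPM in full, and 2.07, 3.87 and 2.79 CPM in BEC. The full replicates lay just above the intermediate ones, early overlapped both, and the BEC replicates were below all of them. BEC was below full by a log2 fold change of -0.84 (SE 0.23, edgeR adjusted p = 0.0168), and this missed the threshold without BEC replicate 1 (-0.65, 0.0616) or BEC replicate 3 (-0.81, 0.0584). Full against early was -0.03 (edgeR adjusted p = 0.913) and turned to 0.84 (0.00423) with total-count scaling. Ifit3 has a near-identical copy, Ifit3b, listed at 0.952 to 1.20 CPM in the group means, and how the counting shared reads between them is not given in the sources used here, so the Ifit3 values are uncertain.

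Isg15 encodes the ubiquitin-like protein that interferon-induced enzymes attach to other proteins. Its level was 8.30, 5.82 and 9.87 CPM in early replicates, 5.97, 6.08 and 6.28 CPM in intermediate, 7.23, 9.14 and 9.84 CPM in full, and 4.48, 6.76 and 7.49 CPM in BEC. All full replicates were above all intermediate ones, and every other pair of groups overlapped. Full exceeded intermediate by a log2 fold change of 0.51 (SE 0.23, edgeR adjusted p = 0.0865), which passed with total-count scaling (0.72, 0.0221) and in a fit of the 6 libraries of both groups (0.52, 0.0307), and by DESeq2 (0.55, adjusted p = 0.0480). Intermediate against early was -0.39 (edgeR adjusted p = 0.174; 0.27 with total-count scaling), and BEC against full -0.48 (edgeR adjusted p = 0.161).

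Ifi27 encodes a small membrane protein of mitochondria and the nuclear envelope. Its level was 88.7, 77.0 and 76.6 CPM in early replicates, 76.5, 85.6 and 67.1 CPM in intermediate, 78.2, 95.0 and 77.0 CPM in full, and 77.9, 106 and 109 CPM in BEC. All groups overlapped, and group means ran from 76.4 ± 9.28 to 97.8 ± 17.3 CPM (SD, n = 3 each). The 3 steps had log2 fold changes of -0.08 (SE 0.14, edgeR adjusted p = 0.650; 0.59 and called, 0.0024, with total-count scaling), 0.13 (adjusted p = 0.500) and 0.23 (adjusted p = 0.294). BEC against intermediate passed narrowly at 0.36 (SE 0.14, edgeR adjusted p = 0.0426). Without any of 8 libraries it missed the threshold, with adjusted p from 0.0504 without full replicate 3 to 0.173 without intermediate replicate 3: the others were early replicates 2 and 3, intermediate replicate 1, full replicate 1 and BEC replicates 2 and 3. It also missed it in a fit of the 6 libraries of both groups (0.34, edgeR adjusted p = 0.0633), so that 10 of 19 alternatives kept the call.

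Counted together, 1 gene was called higher in intermediate than in early (Oasl2) and 3 lower (Irf7, Stat2 and Bst2), where 28.7% of all tested genes were called higher and 25.7% lower, 54.4% in all. With total-count scaling the split was 4 higher and 2 lower, where 85.6% of all genes called were higher. In full against intermediate 3 were higher (Oasl2, Ifit1 and Irf1) and 2 lower (Stat2 and Bst2), beside 20.8% and 19.8% of all genes, 40.7% in all. With total-count scaling 4 were higher and 1 lower, where 72.6% of all genes called were higher. In BEC against full 1 was higher (Oasl2) and 4 lower (Ifit1, Ifit3, Stat2 and Bst2), beside 10.7% and 10.6%, 21.3% in all. This last count of 5 was 2 without BEC replicate 1 and 3 without full replicate 2, full replicate 3 or BEC replicate 3. The median log2 fold change over the 9 genes was -0.13, 0.13 and -0.48 at the 3 steps, beside 0.06, 0.01 and 0.0046 over all tested genes. With total-count scaling the median of the 9 was 0.53 and 0.33 at the first 2 steps, beside 0.72 and 0.21 over all genes. Single libraries also moved it, to -0.23 at the first step without early replicate 1, to 0.21 at the second without intermediate replicate 2 and to -0.29 at the third without BEC replicate 1.

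Oasl2 had the largest log2 fold change of the 9 genes in each of the 3 wider comparisons. Full against early had Oasl2 (3.34), Ifit1 (0.84) and Irf1 (0.55) higher, and Bst2 (-1.94), Irf7 (-1.33) and Stat2 (-1.04) lower, where 39.1% of all genes were called higher and 32.1% lower, 71.2% in all. With total-count scaling 6 were higher and 2 lower in that comparison, where 81.8% of all genes called were higher. Isg15 (0.99, edgeR adjusted p = 0.00139), Ifit3 and Ifi27 (0.91, 4.46e-05) were added and Stat2 was lost. The sizes moved as well, to 4.21 for Oasl2, 1.71 for Ifit1, 1.41 for Irf1, -0.46 for Irf7 and -1.07 for Bst2. BEC against early had Oasl2 (4.20) and Irf1 (0.66) higher, and Bst2 (-2.48), Stat2 (-1.66), Irf7 (-1.24) and Ifit3 (-0.87) lower, where 40.0% and 33.0% of all genes were called, 73.1% in all. With total-count scaling 4 were higher and 3 lower there, where 80.3% of all genes called were higher. Ifit1 (1.05, edgeR adjusted p = 0.000194) and Ifi27 (1.14, 4.88e-06) were added, with Oasl2 at 5.07, Irf1 at 1.52, Irf7 at -0.37, Stat2 at -0.80 and Bst2 at -1.61. BEC against intermediate had Oasl2 (2.42), Irf1 (0.70) and Ifi27 (0.36) higher, and Stat2 (-1.20), Bst2 (-1.05) and Ifit3 (-0.73) lower, beside 26.3% and 26.2% of all genes, 52.4% in all. With total-count scaling Ifit3 was 0.0015 in BEC against early and -0.53 in BEC against intermediate and was called in neither, and it was also not called in the latter without BEC replicate 1 (-0.54, edgeR adjusted p = 0.0597). In the second step minus the first Irf7 and Bst2 were called, both with positive values because their second fall was smaller. Of all genes 16.4% were called in this difference, 5.64% with a positive value. That difference was 0.63 for Irf1 (edgeR adjusted p = 0.0983), which was called by DESeq2 (0.72, adjusted p = 0.0404) and, in edgeR, when BEC replicate 1 was left out (0.62, 0.0281).

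**Figure D2:**
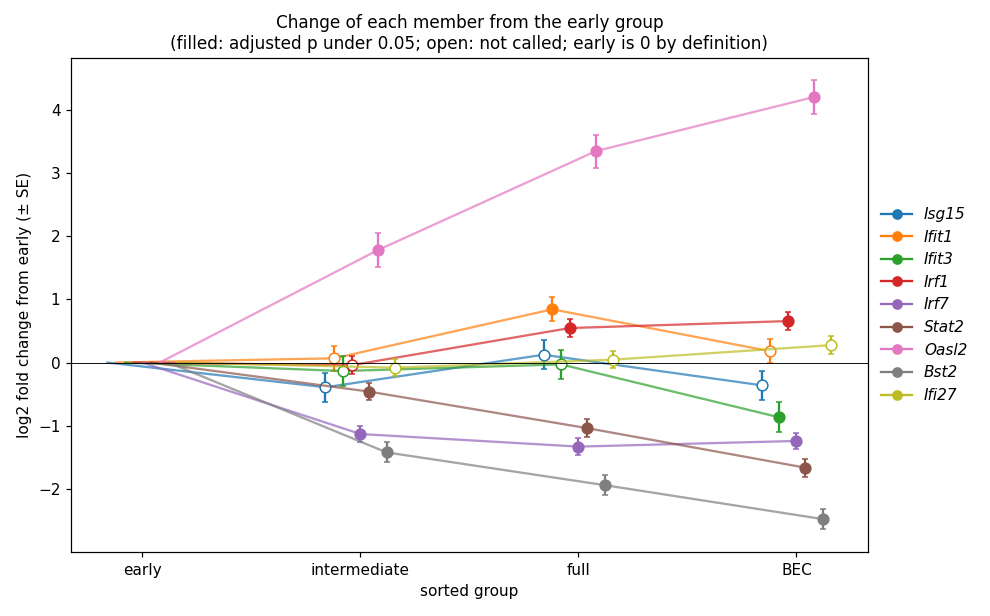
Log2 fold change of each gene from the early group (vertical axis, early set to 0) in the intermediate, full and BEC groups, with bars of 1 SE to each side and points filled where the edgeR adjusted p was under 0.05. Oasl2 climbs to 4.20 in BEC, Bst2 and Stat2 descend to -2.48 and -1.66, and Irf7 drops to -1.13 in intermediate and then stays between -1.13 and -1.33.

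The ligands of the pathway were not measurable in these cells. None of 9 interferon genes passed the filter. Ifna1, Ifna2, Ifna4, Ifnb1, Ifne, Ifng, Ifnl2 and Ifnl3 had 0 counts in all 12 libraries, which allows up to 3 counts, or 0.128 to 0.273 CPM, in each, by counting error alone. Ifnk had 0 to 10 counts per library.

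The receptor chains were measured throughout, and 4 of 6 rose and 1 fell between early and intermediate, where 28.7% of all genes were called higher and 25.7% lower. With total-count scaling 5 rose and none fell, where 85.6% of all genes called were higher. Ifnar1, the signalling chain shared by all type I interferons, averaged 65.7, 87.3, 96.8 and 98.7 CPM in early, intermediate, full and BEC and rose at the first step (0.41, edgeR adjusted p = 0.00602). Ifnar2, its partner that holds STAT2, averaged 61.0, 43.0, 37.2 and 31.5 CPM and fell there (-0.51, edgeR adjusted p = 0.00553), but not with total-count scaling (0.16, adjusted p = 0.300). Ifngr1, the ligand-binding chain for interferon gamma, averaged 50.8, 106, 122 and 146 CPM and rose at the first step (1.06, edgeR adjusted p = 0.000231). Il10rb, the chain shared by interferon lambda and interleukin 10 family receptors, rose there too (1.0, edgeR adjusted p = 0.00014). Ifnlr1, the chain particular to interferon lambda, averaged 3.32, 5.75, 14.5 and 15.7 CPM and rose at the first step (0.79, edgeR adjusted p = 0.00371) and the second (1.33, adjusted p = 3.69e-05), where it was the 1 chain called, beside 40.7% of all genes. Between full and BEC 0 of the 6 were called by edgeR or DESeq2, beside 21.3% of all genes, with 1 (Il10rb) at an unadjusted p under 0.05 and 2 called in the fit of the 6 libraries. Without early replicate 3 the numbers called at the second and the third step were 2 and 1 chains. Ifngr2 was not called at any step.

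Genes of signal transduction also moved in both directions between early and intermediate. Jak2, a kinase of the interferon gamma receptor, rose (0.89, edgeR adjusted p = 1.93e-05), and Jak1 rose by 0.26 (adjusted p = 0.0326), a call lost without early replicate 2, intermediate replicate 1 or intermediate replicate 3. Irf3, the factor that starts interferon production, fell there (-0.46, edgeR adjusted p = 0.00197), though its value was 0.20 (0.108) with total-count scaling. Irf9, the DNA-binding subunit, averaged 41.5, 42.4, 51.9 and 49.4 CPM and was called higher in full than in intermediate (0.29, edgeR adjusted p = 0.0403), the 1 call of 7 tested genes at that step, where 40.7% of all genes were called. That call was lost without any of early replicate 2, intermediate replicates 1, 2 and 3, full replicates 2 and 3, and BEC replicate 3. Jak2 was the 1 gene of this list called between full and BEC (0.38, edgeR adjusted p = 0.0254), where 21.3% of all genes were called, and not without full replicate 2, full replicate 3, BEC replicate 1 or BEC replicate 2. Tyk2 and Irf2 were not called at any step.

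The sensors of foreign nucleic acid moved in both directions. At the first step 2 of 11 tested genes rose and 6 fell, beside 28.7% and 25.7% of all genes. With total-count scaling 6 rose and 2 fell, where 85.6% of all genes called were higher. Sting1, the adaptor for DNA sensing, averaged 0.532, 5.86, 31.1 and 53.7 CPM in early, intermediate, full and BEC, with log2 fold changes of 3.51 (edgeR adjusted p = 0.000542), 2.43 (0.000252) and 0.79 (0.143, not called) at the 3 steps. Its early counts were 1, 14 and 3 and its intermediate counts 172, 50 and 71, and the first of these Sting1 values was 5.11 without early replicate 2 and 2.74 without intermediate replicate 1, where the second was 3.20. Cgas, the DNA sensor upstream of it, averaged 0.343, 0.529, 3.47 and 4.17 CPM and rose between intermediate and full (2.68, edgeR adjusted p = 0.000301, or 3.28 without intermediate replicate 3). Tlr3, an endosomal sensor of double-stranded RNA, averaged 11.5, 19.0, 32.7 and 61.2 CPM and rose at each step, by 0.72, 0.78 and 0.90. Mavs, the adaptor of the cytosolic RNA sensors, averaged 108, 47.1, 36.9 and 39.5 CPM and fell at the first step (-1.19, edgeR adjusted p = 1.44e-06). Ddx58, which encodes the RNA sensor RIG-I, fell between full and BEC (-0.70, edgeR adjusted p = 0.00337). Ikbke, a kinase that activates IRF3 and IRF7, fell and then rose, by -1.09, 0.63 and 0.67 at the 3 steps. Trim25, a ubiquitin ligase acting on RIG-I, fell at the second and the third step, with log2 fold changes of -0.58 and -0.59, and at the first was -0.34 (edgeR adjusted p = 0.0188) but 0.33 (0.0155) with total-count scaling. That first call of Trim25 was also lost without early replicate 2 or intermediate replicate 1. In all, 4 sensors rose and 2 fell at the second step, beside 20.8% and 19.8% of all genes, and 2 rose and 2 fell at the third, beside 10.7% and 10.6%.

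The enzymes that attach and remove ISG15 did not share a course either. Ube2l6, the conjugating enzyme, averaged 83.5, 32.6, 20.6 and 18.1 CPM in early, intermediate, full and BEC and fell at the first 2 steps, with log2 fold changes of -1.36 (edgeR adjusted p = 6.58e-07) and -0.67 (0.000693). Uba7, the activating enzyme, averaged 25.9, 30.1, 51.4 and 63.1 CPM and rose at the second step (0.77, edgeR adjusted p = 1.64e-05). Its change between full and BEC was 0.30 (edgeR adjusted p = 0.0298), lost without full replicate 1, full replicate 3, BEC replicate 1 or BEC replicate 3. Herc6, the ligase, averaged 12.8, 8.74, 12 and 7.24 CPM, with -0.54 (edgeR adjusted p = 0.00700; 0.12 with total-count scaling), 0.45 (0.0237) and -0.73 (0.00249) at the 3 steps. The 0.45 of Herc6 was not called without any 1 of the intermediate replicates, full replicate 2 or full replicate 3. Usp18, which removes ISG15 and restrains the type I receptor, averaged 25.6, 27.1, 22.8 and 9.15 CPM and fell between full and BEC (-1.32, edgeR adjusted p = 1.86e-05). Of the other negative regulators, Socs1, Ptpn2 and Pias1 were not called at any step. Socs3 was called lower at the first step (-1.49, edgeR adjusted p = 0.0447) but missed the threshold in 11 of 19 alternatives, among them total-count scaling, DESeq2 and 8 omissions of a library (early replicate 1, where it was -0.09, intermediate replicates 2 and 3, full replicates 1 and 2, and each BEC replicate).

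Beyond the 9 genes, 42 of 43 other type I interferon effectors were tested. At the first step 9 were called higher and 12 lower, beside 28.7% and 25.7% of all genes. With total-count scaling these became 29 and 2, where 85.6% of all genes called were higher. At the second step 20 were higher and 6 lower, beside 20.8% and 19.8% of all genes, with a median log2 fold change of 0.34 beside 0.01 for all genes. With total-count scaling these were 24 and 5, where 72.6% of all genes called were higher. Between full and BEC 3 were higher and 6 lower, beside 10.7% and 10.6% of all genes, with the replicate number as a block 7 and 7, and without full replicate 2 3 and 2. Oas3, an oligoadenylate synthetase, had 0 counts in each early library, 6, 20 and 9 in intermediate, 88, 141 and 79 in full, and 128, 204 and 167 in BEC. Against 3 counts per early library it was at least 2.63-fold higher in intermediate, 17.9-fold in full and 30.9-fold in BEC, and it rose by 2.73 on the log2 scale between intermediate and full (edgeR adjusted p = 0.000229). Oas2, its relative, had 3, 1 and 1 counts in early, 0, 0 and 5 in intermediate, 29, 50 and 34 in full, and 82, 185 and 174 in BEC. It was called higher at the second step (edgeR adjusted p = 0.000606), where the size of the change rests on the 5 counts of intermediate replicate 3, the fitted log2 value being 4.01 with that library, 7.93 without it and 3.42 without intermediate replicate 2. Between full and BEC Oas2 rose by 2.05 (edgeR adjusted p = 0.00469). Slfn2, a regulator of immune cell quiescence, rose by 3.53 at the second step, from 0.253 to 2.98 CPM. Epsti1 averaged 0.109, 0.465, 3.71 and 15.2 CPM, with only 3, 1 and 0 early counts, and rose by 2.03 between full and BEC (edgeR adjusted p = 0.000133). Its first step (2.0, edgeR adjusted p = 0.0322) was lost without early replicate 2, early replicate 3, intermediate replicate 1 or intermediate replicate 3, and was 3.25 without early replicate 1.

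Other effectors fell alongside Bst2 and Stat2. Ifitm3, a membrane protein that blocks virus entry, averaged 408, 170, 119 and 73.6 CPM and fell at each step, with log2 fold changes of -1.26 (edgeR adjusted p = 3.75e-08), -0.52 and -0.69. Lgals9, a galectin, averaged 526, 203, 111 and 111 CPM and fell at the first (-1.37, edgeR adjusted p = 1.09e-07) and second steps (-0.87, 1.35e-05). Mx1, a GTPase that blocks viruses, averaged 2.98, 2.95, 1.57 and 0.733 CPM, with -0.91 (edgeR adjusted p = 0.0148) at the second step, lost without intermediate replicate 2, and -1.09 (0.0154) at the third, lost without full replicate 2 or BEC replicate 2. Mx2 was called lower between full and BEC (-1.14, edgeR adjusted p = 0.0243), and not without full replicate 2, full replicate 3, BEC replicate 1 or BEC replicate 3. Ifitm1 was called lower at the second step on 0 to 13 counts per library, a call lost without any of intermediate replicates 1 and 3 and full replicates 1, 2 and 3.

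The guanylate-binding proteins and other targets of interferon gamma rose at the second step in 7 of 16 tested genes and fell in 1, beside 20.8% and 19.8% of all genes. At the first step 6 rose and 4 fell, beside 28.7% and 25.7% of all genes. With total-count scaling these were 10 and 1, where 85.6% of all genes called were higher. At the third 1 rose and 4 fell, beside 10.7% and 10.6%. The third count of 5 was 2 without full replicate 3 or BEC replicate 2 and 3 without BEC replicate 1 or BEC replicate 3. Gbp4 had 3 counts in each early library and averaged 0.251, 2.15, 9.53 and 8.71 CPM, and it rose by 3.07 and 2.14 (edgeR adjusted p = 1.2e-05 and 6.91e-06). Gbp9 averaged 6.42, 24.4, 40.1 and 33.0 CPM and rose by 1.93 and 0.72 at the same steps. Gbp2 fell between full and BEC (-0.90, edgeR adjusted p = 0.000457). Tgtp2, an immunity-related GTPase, averaged 0.231, 0.566, 2.10 and 5.92 CPM and rose at the second step (1.86, edgeR adjusted p = 0.00818, or 2.53 without intermediate replicate 2). Its change between full and BEC, 1.49 (edgeR adjusted p = 0.0176), was lost without full replicate 1, full replicate 3 or BEC replicate 2. Iigp1, another such GTPase, averaged 279, 157, 48.5 and 12.4 CPM and fell, with log2 fold changes of -0.83, -1.70 and -1.96 at the 3 steps, the first of which was -0.16 (edgeR adjusted p = 0.142) with total-count scaling. Cxcl9, a chemokine, fell between early and intermediate, from 13.2 to 2.82 CPM (-2.21, edgeR adjusted p = 0.000316).

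**Figure D3:**
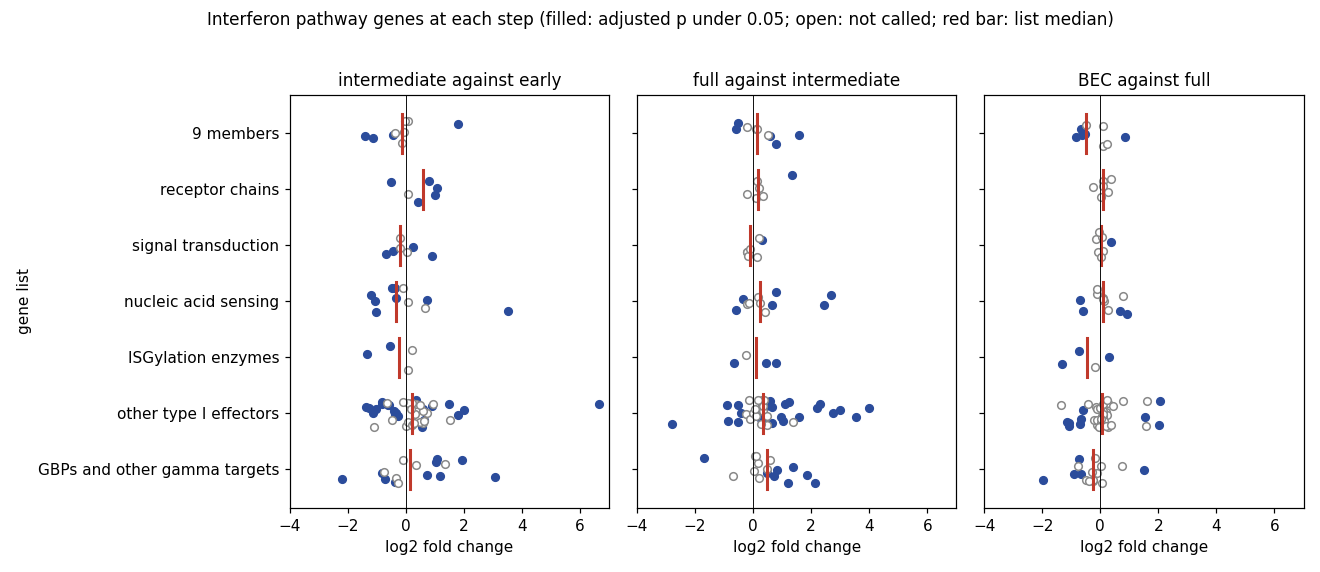
Log2 fold change of every tested gene of each pathway list (horizontal axis) at the 3 steps, 1 panel each, with points filled where the edgeR adjusted p was under 0.05 and a red bar at the list's median. The other type I effectors show 9 filled points to the right of 0 and 12 to the left at the first step, 20 and 6 at the second, and 3 and 6 at the third.

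Copies and close relatives of the members were read separately. Oasl1, a close relative of Oasl2, averaged 85.9, 26.5, 18.1 and 17.6 CPM in early, intermediate, full and BEC and fell where Oasl2 rose, with log2 fold changes of -1.70 (edgeR adjusted p = 4.35e-09) and -0.55 (0.000203) at the first 2 steps. Ifi27l2b averaged 149, 84.5, 26.7 and 17.4 CPM and fell at each step, with log2 fold changes of -0.82, -1.66 and -0.62, though with total-count scaling the first was -0.15 (edgeR adjusted p = 0.233), while no step of Ifi27 was called on the TMM scale. Ifi27l2a averaged 0.259, 0.910, 0.947 and 0.919 CPM and was called higher at the first step (1.82, edgeR adjusted p = 0.0223), and not in the fit of the 6 libraries or without early replicate 1 (1.22), intermediate replicate 1 or intermediate replicate 2, while it was 2.45 without early replicate 2. Ifit3b and Ifit1bl1 were not called at any step, and Ifit1bl2 did not pass the filter.

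Levels across the 12 libraries were also compared gene by gene, as a description. Among genes averaging at least 10 CPM, the pattern most like Oasl2 was that of Fcho1 (Pearson r of log2 CPM 0.996, 12 libraries). For Bst2 it was H2-T22 (r = 0.991), for Stat2 Gpt2 (r = 0.985), for Irf7 Dlat (r = 0.979) and for Irf1 Tap1 (r = 0.952). For Ifit1 it was Ripk2 (r = 0.944), for Ifit3 H2-Q7 (r = 0.917), for Ifi27 Slc39a3 (r = 0.910) and for Isg15 Ube2s (r = 0.842). H2-T22, Tap1 and H2-Q7 belong to antigen presentation, and the class I genes among them have close copies. Among the 9 genes themselves Irf7 and Bst2 were most alike (r = 0.929), and Oasl2 and Bst2 least (r = -0.939). The libraries fall into 4 sorted groups, which these values share.

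Markers of immune and other liver cells, which also express many of these genes, are given beside the results. The 9 macrophage markers summed to 25.3 to 26.8 CPM in early, 30.2 to 39.0 in intermediate, 66.4 to 93.2 in full and 133 to 158 CPM in BEC libraries, the same order as Oasl2. Csf1r, at 3.94, 24.6, 67.8 and 127 CPM, made up most of that in the 3 later groups, whereas in early libraries Cd68 was the larger, at 14.0, 2.74, 1.62 and 3.46 CPM. Of the 8 of these markers that were tested, BEC against early had 1 called higher, Csf1r, and 1 lower, Cd68 (-2.01, edgeR adjusted p = 1.14e-05), beside 40.0% and 33.0% of all genes. Adgre1 averaged at most 0.522 CPM and the leukocyte gene Ptprc at most 0.681 CPM in any group. B cell and plasma cell markers summed to 0.162 to 1.18, 0.767 to 2.07, 4.37 to 17.3 and 16.1 to 46.4 CPM, mostly Igkc, with Ms4a1 at 0 counts in all libraries. T and natural killer cell markers summed to at most 0.839 CPM in any library, and neutrophil markers to at most 1.02 CPM. Plasmacytoid dendritic cell markers, from the cell type known for interferon production, summed to between 1.0 and 3.56 CPM, with Siglech at 0 counts in all libraries. Endothelial markers summed to 15.3 to 23.6 CPM in early libraries, overlapping intermediate (8.74 to 20.7 CPM), and were lowest in full (3.91 to 6.47 CPM). Stellate cell markers ran from 95.2 to 272 CPM in early to 44.8 to 74.0 CPM in full. The part of these cells in the changes of the 9 genes was not tested.

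**Figure D4:**
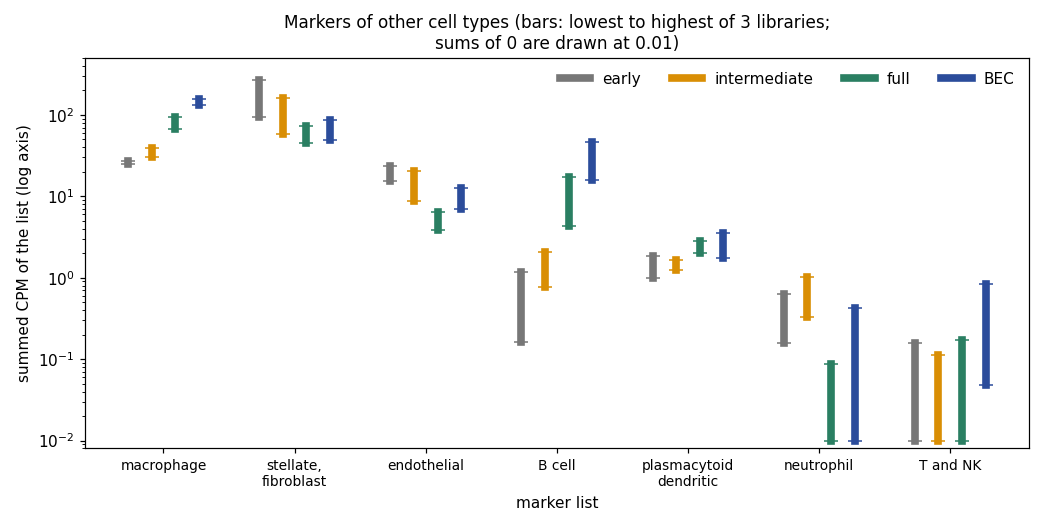
Summed CPM of the marker genes of 7 other cell types (log axis), with a bar from the lowest to the highest of the 3 libraries of each group and sums of 0 drawn at 0.01. The macrophage sum climbs from between 25.3 and 26.8 CPM in early to between 133 and 158 CPM in BEC libraries. Csf1r made up most of that sum in the 3 later groups, and Cd68 was lower in BEC than in early.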

How the data were processed

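RNA was sequenced from 4 sorted groups of 3 libraries. Per the submitters' processing notes, reads were processed with STAR 2.7.10b, featureCounts 2.0.1 and DESeq2 on GRCm39; annotation, strandedness and treatment of multiply mapping reads are not given in the sources used here. The authors deposited whole read counts per gene, analysed here, and a normalized table, not used here. One edgeR 4.0.16 quasi-likelihood fit of all 12 libraries (R 4.3.3, limma 3.58.1) used filterByExpr and TMM factors, with Benjamini-Hochberg adjustment over 16210 genes and calls at adjusted p under 0.05. SE is the log2 fold change divided by the square root of F, and SDs are over 3 replicates. Log2 CPM used a prior count of 2. DESeq2 1.42.0, other scalings, filters, a replicate block and omissions of each library were alternatives. The fit was also run on simulated data, whose outcome is not given here and is not used as support. The 9 genes, the pathway lists and the markers were chosen with earlier results of these data known. Named were all 9 genes, every tested gene of lists of up to 8, the 2 largest called rises and falls per step in longer lists, and the most alike gene of each member. Replicates differed beyond counting error (chi-square per degree of freedom 5.23 to 54.4). Same-numbered replicates deviated together at the 3 steps (correlations 0.121 to 0.293, 0.137 to 0.322 and 0.170 to 0.257). The lowest correlations were 0.0960, 0.0839 and 0.0442 for full against early, BEC against intermediate and BEC against early. These lie above 0 but under the 0.1 set beforehand for pairing. A pairing at the steps would also hold between the same libraries in the wider comparisons, so this limit cannot separate them. The labels do not say what a number marks, and the main fit leaves it out. A result on 1 listed gene is not reported here.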

Additional observations from a re-analysis of the deposited data

How the results depend on the processing

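With the replicate number as a block, which pairs same-numbered libraries, the members called numbered 4, 5 and 5 at the 3 steps, as without it, and no call of a member changed. Total-count scaling called 0 members in the second step minus the first, against 2, and reversed 12 values: in intermediate against early Isg15 0.27, Ifit3 0.53, Irf1 0.62, Stat2 0.20 and Ifi27 0.59, in full against intermediate Irf7 0.0034, in full against early Ifit3 0.84, in BEC against intermediate Irf7 0.094, in BEC against early Isg15 0.51 and Ifit3 0.0015, and in second minus first Ifit3 -0.22 and Ifi27 -0.26. With no filter Ifit3 in full against early was 0.025. The cause was not tested. With total-count scaling the median change of all genes was 1.0 in both full and BEC against early, and genes called higher made up 81.8% and 80.3% of those called, against 54.9% and 54.8%. Over all genes, the second step differed from the first in 2665 genes, or 6139 with total-count scaling and 1676 without intermediate replicate 2. Leaving out each library in turn gave 3 to 4, 4 to 5 and 2 to 5 members called at the 3 steps, 6 in full against early, 5 to 6 in BEC against intermediate, 6 to 7 in BEC against early, 0 to 3 in second minus first and 6 to 8 among 4 groups. Omission of 1 library reversed 16 values, none of them called, with these ranges: in intermediate against early Ifit1 -0.068 to 0.16, Irf1 -0.11 to 0.067 and Ifi27 -0.17 to 0.0058, in BEC against full Irf7 -0.029 to 0.25 and Irf1 -0.00061 to 0.27, in full against early Isg15 -0.070 to 0.30, Ifit3 -0.12 to 0.090 and Ifi27 -0.052 to 0.12, in BEC against intermediate Irf7 -0.23 to 0.047 and Isg15 -0.12 to 0.22, and in second minus first Stat2 -0.36 to 0.080 and Oasl2 -0.62 to 0.27. Irf7 and Bst2 in intermediate against early, and Oasl2 at each step, kept their call under all 19 alternatives. With 3 replicates a group and a common biological variation of 14.8%, a small change can go uncalled.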
